A study of Mus musculus with 768 samples.

Results

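The smooth muscle contractile genes described here were 10 genes chosen by symbol, namely Acta2, Tagln, Myh11, Cnn1, Mylk, Myl9, Tpm2, Des, Cald1 and Casq2, out of 24490 endogenous genes in the deposited tables. They were measured by Smart-seq2, which sequences the polyadenylated RNA of 1 cell per well, in 768 wells of cancer-associated fibroblasts (CAFs) from 2 mammary tumors of 14-week-old FVB/N-Tg(MMTVPyVT)634Mul/J mice, in which the MMTV promoter drives the polyoma middle T oncogene in mammary epithelium. The sort had taken live cells negative for EpCAM, NG2, CD31 and CD45, and all wells belong to 1 group, with no control group. Each tumor filled 1 plate of 384 wells, so that tumor and plate cannot be told apart, and the tumor is the replicate (n = 2). Wells with at least 10000 endogenous reads were kept, which left 373 wells of tumor 1 and 354 of tumor 2, or 727 in all, with 10281 to 838772 endogenous reads in tumor 1 and 10476 to 1190516 in tumor 2.

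Smooth muscle cells and pericytes shorten by sliding actin filaments past myosin filaments. Calcium and calmodulin activate myosin light chain kinase, which phosphorylates the regulatory light chain of myosin, while tropomyosin, caldesmon and calponin lie along the actin filament and modulate the interaction. Serum response factor binds a DNA element called the CArG box and, with its coactivator myocardin, drives many of these genes. Fibroblasts in tumors can take up part of the same program, and Acta2, which encodes alpha smooth muscle actin, is the customary marker of such activated cells.

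The wells were divided by 2 genes that are not among the 10. A well was Rgs5-high when log2(RPKM + 1) of Rgs5 was at least 5 and that of Dcn under 5, and Dcn-high in the opposite case, where RPKM is the number of reads scaled by the length of the gene model and by all reads of the well. Rgs5 encodes a regulator of G protein signaling typical of pericytes and Dcn the matrix proteoglycan decorin. The Rgs5-high class held 255 wells of tumor 1 and 232 of tumor 2, and the Dcn-high class held 83 and 81. A further 37 wells had both genes and 39 had neither. Within 1 log2 unit of the limit lay 31 wells for Rgs5 and 11 for Dcn. The 10 markers listed here for the vascular CAFs, such as Notch3 and Nr2f2, averaged between 3.91 and 9.70 on the log2 scale in Rgs5-high wells and between 0.50 and 2.97 in Dcn-high wells, although several of them had been picked by the study on these same cells. Rgs5-high wells had fewer reads and genes than Dcn-high wells, with medians of 4037 against 5664 genes in tumor 1 and 4158 against 5543 in tumor 2. The share of reads from ERCC spike-ins, which are synthetic RNAs added to every well, was also higher in them (medians of 14.4% against 6.22% in tumor 1 and 12.6% against 6.21% in tumor 2).

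Sequences near the starts of the genes are shown first because a set of these genes moved together across wells. RefSeq (GRCm38.p6) gave 9 promoter windows of 250 bases for 8 of the genes, and for Tagln and Myh11 no window was used. The CArG box, searched on both strands, was in 1 of these 9 windows and in 1.47% of 32851 promoters of the same length. Allowing at most 1 other letter in its core, it was in the windows of Acta2 and Myl9, against 8.59% of all promoters. The M-CAT motif (CATTCC on either strand), to which TEAD factors bind, was in 3 of the 9 windows, those of Acta2, Mylk and Cald1, against 12.6% of all promoters. Such matches are descriptions of these letters and not evidence of binding. Positions are counted from the RefSeq start listed for each window, and in the GENCODE annotation of the same build this start lies inside an exon, 217 bases from its first base in Acta2, 44 in Myl9, 29 in Mylk and 4 in Cald1. The 3 Acta2 sites are thus within an annotated exon of Acta2 and the Mylk site is in an intron of a longer Mylk transcript, whereas the Cald1 and Myl9 sites precede the annotated genes. The sites below are 30 bases each, read 5′ to 3′ on the strand of the gene, with the motif in capitals.
Acta2, CArG-like at -84 from the listed start, chr19:34255438-34255467, minus strand: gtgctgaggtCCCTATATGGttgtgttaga
Acta2, CArG-like at -34, chr19:34255388-34255417, minus strand: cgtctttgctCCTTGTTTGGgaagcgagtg
Acta2, M-CAT at -146, chr19:34255502-34255531, minus strand: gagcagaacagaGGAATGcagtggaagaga
Mylk, M-CAT at -158, chr16:34784780-34784809, plus strand: tgcagttcagaaCATTCCctggtacgtgca
Cald1, M-CAT at -153, chr6:34598339-34598368, plus strand: gagcatgcctagGGAATGacaggcatctgc

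Myl9 had both a CArG box at -161 and a CArG-like sequence at -99. Its 194 bases before the annotated gene, chr2:156775214-156775407 on the plus strand, carry both in capitals.
Myl9: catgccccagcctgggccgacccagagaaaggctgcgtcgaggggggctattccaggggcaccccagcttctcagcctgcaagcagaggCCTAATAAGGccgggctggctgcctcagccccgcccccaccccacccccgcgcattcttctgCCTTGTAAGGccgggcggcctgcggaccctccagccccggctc

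In Rgs5-high wells the contractile genes ran from near-universal to rare. On the log2(RPKM + 1) scale, which is per gene length, the highest levels were those of Acta2 at 8.50 ± 0.73 (mean of the tumors ± SD, n = 2) and Myl9 at 8.41 ± 1.05. Their values over the tumors overlapped. Cald1 followed at 7.64 ± 0.16 and overlapped with Myl9, which lay above it in tumor 1 and below it in tumor 2. Mylk stood at 6.65 ± 0.12, clear of Cald1, and its lower tumor, at 6.56, was just above the higher tumor of Tpm2, at 6.50. Tpm2 at 6.08 ± 0.58, Des at 6.01 ± 0.92 and Tagln at 5.64 ± 0.81 overlapped with their neighbours in this order. Myh11 at 3.25 ± 0.58, Casq2 at 1.48 ± 0.21 and Cnn1 at 0.30 ± 0.04 were each clear of the gene above in both tumors.

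In Dcn-high wells the order was different. Cald1 was highest at 7.06 ± 0.13, then Acta2 at 5.68 ± 0.16, Tagln at 5.12 ± 0.20, Myl9 at 4.53 ± 0.32, Tpm2 at 4.26 ± 0.42 and Mylk at 3.04 ± 0.03. Of these neighbours, only Myl9 and Tpm2 overlapped over the tumors. Des at 0.25 ± 0.06, Cnn1 at 0.15 ± 0.20, Myh11 and Casq2 were close to 0. Neighbours in this order overlapped over the tumors, while Des was above Myh11 and Casq2 in both.

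**Figure D1:**
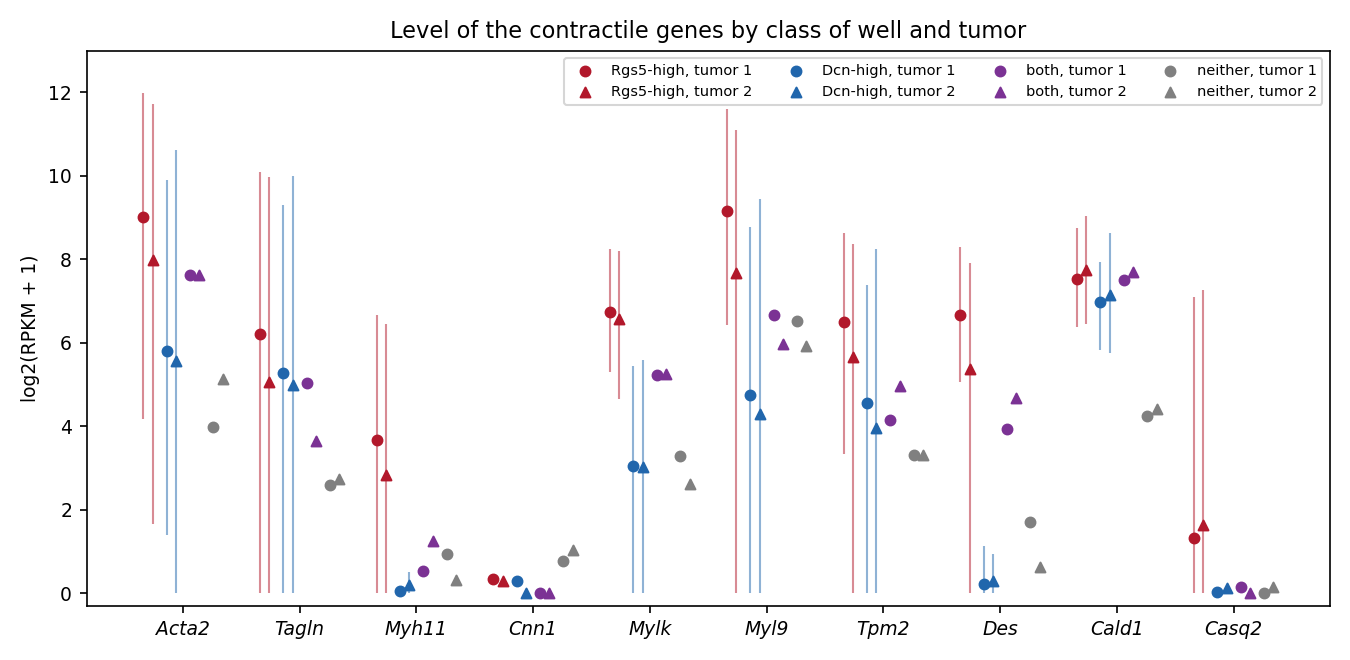
Mean log2(RPKM + 1) of each contractile gene (horizontal axis) in wells of 4 classes; circles are tumor 1 and triangles tumor 2, and vertical lines run from the 10th to the 90th percentile of wells in the Rgs5-high and Dcn-high classes. The means of Des and Mylk are well apart between the 2 main classes in both tumors, although the lines overlap for Mylk in both tumors and for Des in tumor 2, whereas the means of Tagln and Cald1 lie close together.

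Alpha smooth muscle actin was detected in most wells of both classes, at very different levels. Acta2 had a read in 251 of 255 Rgs5-high wells of tumor 1 (98.4%, exact binomial 95% interval 96.0 to 99.6%) and in 219 of 232 of tumor 2 (94.4%, 90.6 to 97.0%). In Dcn-high wells it was in 78 of 83 (94.0%, 86.5 to 98.0%) and 69 of 81 (85.2%, 75.5 to 92.1%). After every well was thinned to 50000 endogenous reads, the shares for Acta2 were 95.1% and 88.5% in Rgs5-high wells and 73.8% and 74.4% in Dcn-high wells. Smart-seq2 reads carry no molecular identifiers, so these and the following intervals cover counting error only. The level spread from 4.17 at the 10th percentile to 11.99 at the 90th in Rgs5-high wells of tumor 1 and from 1.65 to 11.72 in tumor 2. In Dcn-high wells the same percentiles were 1.39 and 9.90 in tumor 1, and in tumor 2 the 90th percentile was 10.61 with the 10th at 0. The level was thus graded over many doublings, and the classes overlapped widely.

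To set this spread against technical noise, the squared coefficient of variation of reads was compared with that of the 3 spike-ins nearest in mean reads. For Acta2 it was 67.2 times the spike-in median in Rgs5-high wells of tumor 1 and 16.3 times in tumor 2. For Cald1, which encodes caldesmon, it was 1.92 and 2.01 times, and for Des 2.17 and 1.84 times. In Dcn-high wells it was 46.1 and 56.8 times for Acta2 and 2.53 and 13.3 times for Cald1. Des had few reads there, with 0.502 and 4.86 times. In Rgs5-high wells Cald1 had a 10th to 90th percentile range of 6.39 to 8.74 in tumor 1 and 6.45 to 9.03 in tumor 2. It had a read in 253 of 255 and 231 of 232 Rgs5-high wells, and in 83 of 83 and 79 of 81 Dcn-high wells.

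Of the other genes of the actin filament, Tagln and Tpm2 were graded with a share of empty wells. Tagln encodes transgelin, an actin-binding protein of smooth muscle. It had no read in 45 of 255 and 67 of 232 Rgs5-high wells, and in 21 of 83 and 24 of 81 Dcn-high wells. The spike-ins nearest in mean reads had no read in a median of 0.392% and 0.431% of the Rgs5-high wells, against 17.6% and 28.9% for Tagln. Tpm2, a tropomyosin, had no read in 19 of 255 and 33 of 232 Rgs5-high wells and in 15 of 83 and 23 of 81 Dcn-high wells. Its spike-in medians in Rgs5-high wells were 0.392% and 6.03%, against 7.45% and 14.2% for Tpm2, a smaller gap than for Tagln.

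Of the 1582 windows of 43 bases, the length of a read, in the Tagln transcripts, 49.6% also occurred in transcripts of other genes, among them Pcsk7 and the overlapping gene model Gm48529. The reads do not keep strand, so that reads of Tagln and of an overlapping model cannot be told apart. Over Rgs5-high wells Pcsk7 had 3128 summed reads in tumor 1 and 1619 in tumor 2, against 41982 and 24971 for Tagln. The shared part was 6.03% of windows for Des, 4.49% for Mylk, 0.650% for Acta2 and 0.602% for Myh11, and 0 for the other 5 genes.

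Cnn1, which encodes basic calponin and is a late marker of differentiated smooth muscle, was rare throughout. A read was found in 15 of 255 (5.88%, 3.33 to 9.52%) and 13 of 232 (5.60%, 3.02 to 9.39%) Rgs5-high wells, and in 5 of 83 and 1 of 81 Dcn-high wells. In wells with neither Rgs5 nor Dcn it was in 2 of 13 and 5 of 26. Of those wells 13 of 39 had at least 1 of 6 myoepithelial markers at a log2 level of 5 or more, against 12 of 164 Dcn-high and 8 of 487 Rgs5-high wells, and 3 of the 7 wells with Cnn1 were among the 13. In tumor 1, 5 of the 6 markers had a read there, with Cdh3 in 0 of 13 wells, and in tumor 2 there were 4, with Krt14 and Krt17 in 0 of 26 wells. Cdh3 was in 3 of those 26, and in 10 of 83 and 14 of 81 Dcn-high wells. The myoepithelial markers were together at a summed mean log2 level of 8.73 and 3.01 in these wells, 1.52 and 1.62 in Dcn-high wells, and 0.220 and 0.197 in Rgs5-high wells. The wells with neither gene also had a summed mean log2 level of 21.2 and 23.7 over 5 markers listed for the study's dCAF population, such as Scrg1 and Sox10, and of 8.20 and 4.90 over 5 luminal epithelial markers, against 0.586 and 2.07 and against 0.492 and 1.46 in Rgs5-high wells. The part of any of these in the Cnn1 values was not tested.

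The myosin genes differed from each other in the Dcn-high class. Myl9, the regulatory light chain, had a read in 245 of 255 and 195 of 232 Rgs5-high wells, and in 63 of 83 and 49 of 81 Dcn-high wells. Myh11, the smooth muscle myosin heavy chain and a restricted marker of that lineage, had a read in 185 of 255 (72.5%, 66.6 to 77.9%) and 139 of 232 (59.9%, 53.3 to 66.3%) Rgs5-high wells. It was in only 6 of 83 (7.23%, 2.70 to 15.1%) and 10 of 81 (12.3%, 6.08 to 21.5%) Dcn-high wells. The shares of Myh11 did not overlap between the classes in either tumor.

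Mylk, the kinase that phosphorylates the light chain, was in 252 of 255 and 225 of 232 Rgs5-high wells, mostly at log2 levels of 4 to under 8 (197 and 175 wells). In the Dcn-high class it was in 70 of 83 and 62 of 81 wells, and no well reached 8. The light chain and its kinase were thus both detected in most cells of each class, at lower levels in the Dcn-high one.

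Des encodes desmin, the intermediate filament protein of muscle and of pericytes, and it was nearly on or off by class. A read was found in 243 of 255 (95.3%, 91.9 to 97.6%) and 196 of 232 (84.5%, 79.2 to 88.9%) Rgs5-high wells, and in 12 of 83 (14.5%, 7.70 to 23.9%) and 9 of 81 (11.1%, 5.21 to 20.05%) Dcn-high wells. After every well was thinned to 50000 endogenous reads, the shares were 95.5% and 84.4% against 3.75% and 6.41%, leaving out 9 and 14 Rgs5-high wells and 3 and 3 Dcn-high wells that were shallower. Wells with both Rgs5 and Dcn had a mean log2 level of Des of 3.94 and 4.68. This mean mixes empty wells, 8 of 22 and 3 of 15, with wells mostly at 4 to under 8 (13 and 9 wells). The median of the wells with a Des read was 6.59 and 5.81, against 7.22 and 6.55 in Rgs5-high wells.

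Casq2, the calcium-binding protein calsequestrin 2 of the sarcoplasmic reticulum, was on or off within the Rgs5-high class itself. It had no read in 203 of 255 and 169 of 232 wells. In tumor 1, 8 of the positive wells were under a log2 level of 4, 34 between 4 and 8 and 10 at 8 or more, and in tumor 2 the numbers were 10, 44 and 9. The spike-ins nearest in mean reads were missing from a median of 23.1% and 28.02% of these wells, against 79.6% and 72.8% for Casq2. The highest values among these spike-ins were 26.7% and 41.4%. In the Dcn-high class 1 of 83 and 3 of 81 wells had a read. A minority of Rgs5-high cells thus held Casq2, mostly at log2 levels of 4 or more, while in most cells it was not detectable at this depth. Of the 8 markers of striated muscle, such as Acta1 and Ckm, none averaged above 0.17 in the log2 level of Rgs5-high wells.

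**Figure D2:**
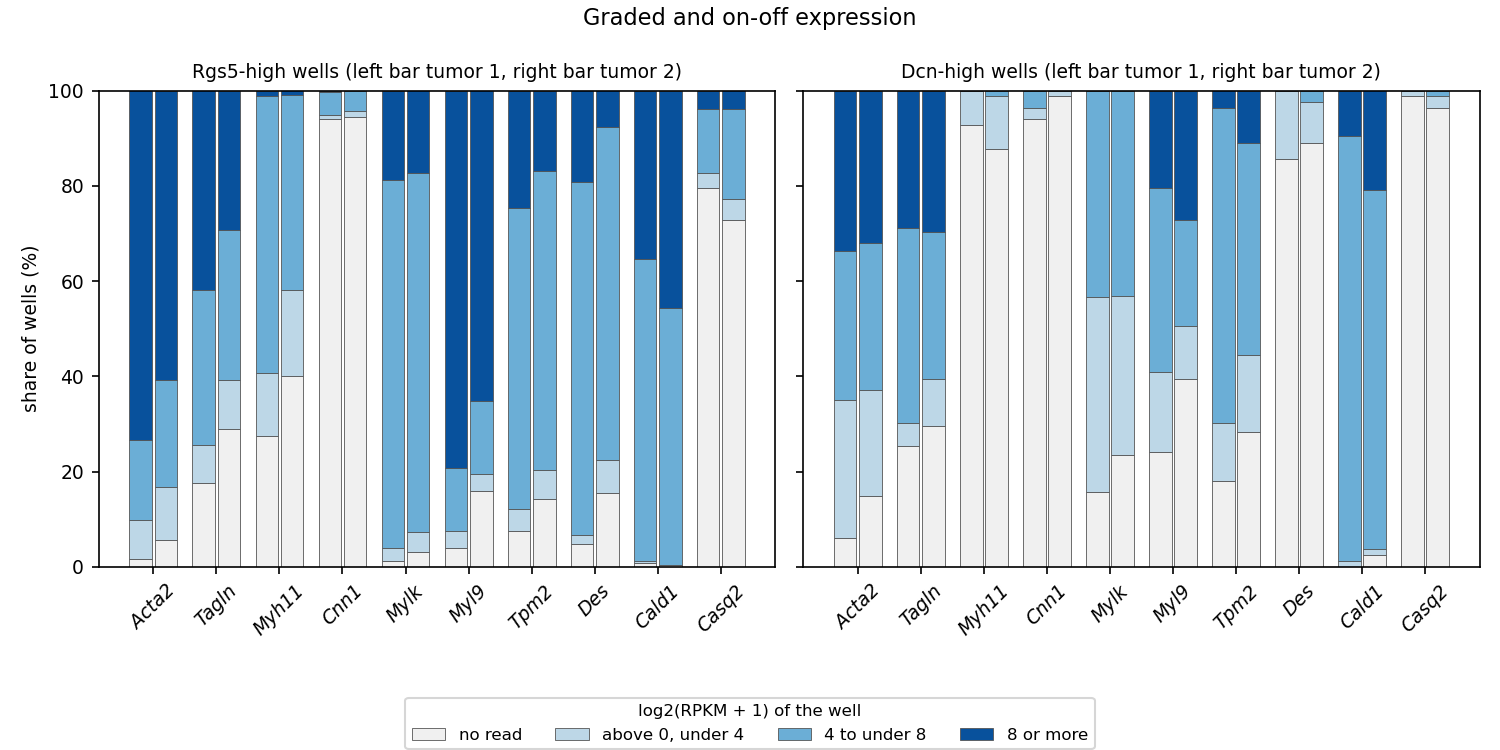
Share of wells (%) by log2(RPKM + 1) of each contractile gene, in steps from no read to 8 or more, in Rgs5-high wells (left panel) and Dcn-high wells (right panel), with 1 bar per tumor. Cald1 has almost no empty wells, Acta2 spreads over all steps, and Casq2 has no read in 79.6% and 72.8% of Rgs5-high wells.

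Counted together, the median Rgs5-high well had a read for 8 of the 10 genes in tumor 1 and 7 in tumor 2, and the median Dcn-high well for 6 and 5. At least 8 genes were found in 63.1% and 46.6% of Rgs5-high wells, against 1.20% and 2.47% of Dcn-high wells. After thinning to 50000 reads these shares were 57.3% and 43.1% against 0% and 1.28%. The 0% stands for 0 of the 80 thinned Dcn-high wells of tumor 1.

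The next question was which contractile genes differed between the classes beyond the spread of the tumors. Reads were summed per tumor and class, which gave 4 libraries. The quasi-likelihood test of edgeR was run over 11715 genes whose RPKM averaged at least 1 over all kept wells. Most of these wells were Rgs5-high, so the filter favours genes high in that class. A summed count cannot by itself tell fewer expressing cells from less RNA per cell. Of the 10 genes, 6 were higher in Rgs5-high wells at a Benjamini-Hochberg adjusted p of 0.05 (Acta2, Myh11, Mylk, Myl9, Tpm2 and Des), and the fitted log2 ratio was above 0 for all 10. Among all genes tested, 6.74% were called higher and 9.84% lower in Rgs5-high wells. The median log2 ratio was 2.00 over the 10 genes and 0.03 over all genes tested.

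Mylk had the firmest difference. Its CPM, the reads scaled to a common library total after TMM normalization, were 1283 and 1207 in the Rgs5-high libraries of tumors 1 and 2 and 155 and 173 in the Dcn-high ones, a log2 ratio of 2.92 ± 0.17 (SE) with an edgeR adjusted p of 0.000505. It was the 1 contractile gene past an adjusted p of 0.001, which 0.546% of all genes passed as higher and 1.38% as lower. The study set its FDR limit of 0.001 for a different test, on single cells of 1 population against the rest pooled. The 2 limits are therefore not alike. Myl9 stood at 1733 and 1102 CPM against 244 and 306, a log2 ratio of 2.37 ± 0.28 (edgeR adjusted p = 0.00425). Acta2 stood at 4811 and 3640 CPM against 1130 and 1603, a log2 ratio of 1.63 ± 0.25 (edgeR adjusted p = 0.0109). For each of these 3 genes both Rgs5-high libraries stood above both Dcn-high ones. With 2 libraries per class this order alone is weak evidence, and its share among all genes was not counted.

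Des and Myh11 had the widest differences among the genes that passed the test, and few reads in the Dcn-high libraries. Des had 29131 and 16452 reads in the Rgs5-high libraries and 29 and 243 in the Dcn-high ones, with a log2 ratio of 5.78 ± 1.05 (edgeR adjusted p = 0.0182). Myh11 had 17530 and 11129 reads against 6 and 49, with a log2 ratio of 7.45 ± 0.89 (edgeR adjusted p = 0.00449). Its mean RPKM was 34.9 over Rgs5-high wells and 0.295 over Dcn-high wells. Myh11 thus passed the filter only through wells outside the Dcn-high class, so its p is no independent support. The per-tumor log2 ratios were 8.49 and 4.54 for Des and 10.03 and 6.28 for Myh11. In the Dcn-high library of tumor 2, 1 well held 189 of the 243 Des reads, and the same well held 22 of the 49 Myh11 reads.

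Casq2 and Cnn1 did not pass the test. Casq2 had 5974 and 5053 reads in the Rgs5-high libraries and 1 and 101 in the Dcn-high ones, and 99 of those 101 came from 1 well. Its log2 ratio was 5.15 ± 1.35 (edgeR adjusted p = 0.0582), and with a limit of 3 in place of 5 for both class genes the log2 ratio was 9.69 with an adjusted p of 0.000640. In tumor 1 the ratio against that 1 read was 2633 (95% counting interval 472 to 104017). Cnn1 had 758 and 436 reads against 168 and 1, with 108 of the 168 in 1 well, and a log2 ratio of 1.39 ± 1.54 (edgeR adjusted p = 0.611).

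Tpm2, Cald1 and Tagln had fitted log2 ratios under 1. Tpm2 had 451 and 345 CPM in Rgs5-high libraries and 182 and 232 in Dcn-high ones, a log2 ratio of 0.94 ± 0.21 (edgeR adjusted p = 0.0389). With the tumor as a block the adjusted p of Tpm2 was 0.0555, which left 5 of the 10 genes called, where 6.85% of all genes were called higher and 10.3% lower. Cald1 had 983 and 1099 CPM against 722 and 851, a log2 ratio of 0.40 ± 0.17 (edgeR adjusted p = 0.183). Tagln had 730 and 485 CPM against 422 and 587, so that its log2 ratio was 0.79 in tumor 1 and -0.27 in tumor 2. The fitted value for Tagln was 0.27 ± 0.27 (edgeR adjusted p = 0.574). When ERCC reads set the library size the median of all genes moved to -0.67, and the fitted values of Tagln and Cald1 then fell below 0, at -0.45 and -0.30, which is above that median.

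**Figure D3:**
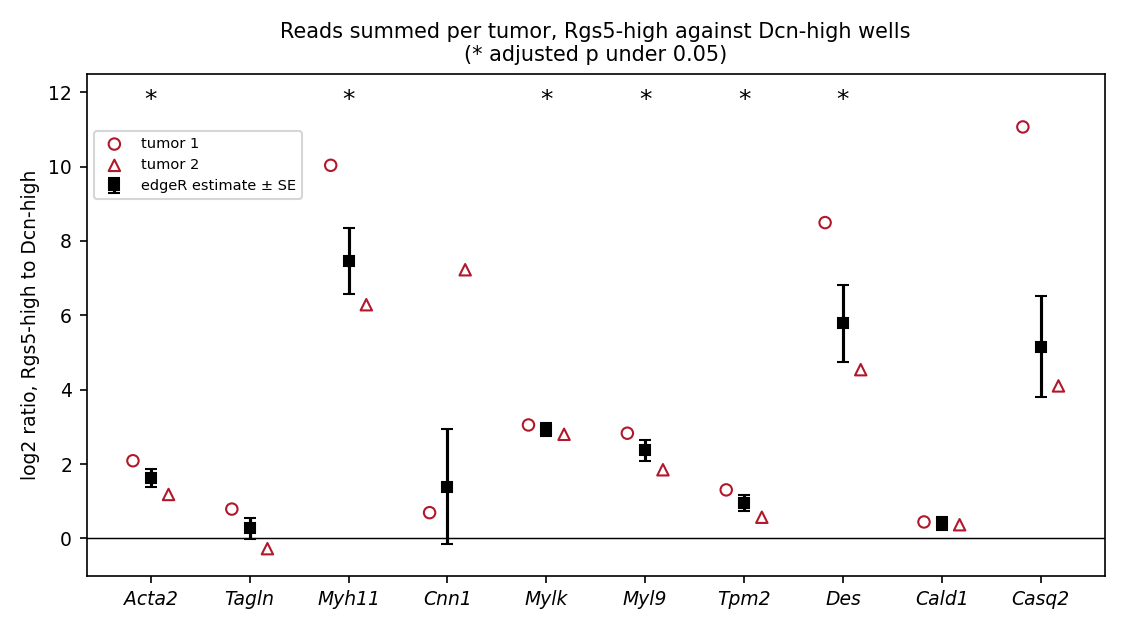
Log2 ratio of Rgs5-high to Dcn-high libraries for each contractile gene, with the edgeR estimate ± SE as black squares and the per-tumor ratios as open circles (tumor 1) and triangles (tumor 2); asterisks mark an adjusted p under 0.05. Mylk has close values in both tumors, Tagln lies on both sides of 0, and Myh11, Des, Casq2 and Cnn1 differ most between tumors.

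Other genes of the smooth muscle cytoskeleton, 24 in the list, gave 8 higher, 2 lower and 14 not called, with a median log2 ratio of 0.66. Those higher were led by Pdlim3 (4.38 ± 0.54), a PDZ and LIM domain protein of the Z line, and the actin-bundling Synpo2 (4.23 ± 0.51), and also included Synm, Filip1l, Nexn and Csrp1. Synm encodes synemin, a partner of desmin, at a log2 ratio of 3.72 ± 0.48. Those lower were Palld (-2.69 ± 0.21) and Svil (-1.16 ± 0.19), which encode the actin-associated palladin and supervillin. Blocking on the tumor gave 8 and 2 again for this list, with Csrp1 no longer among them and another gene of the list in its place.

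Genes that control contraction, 16 in the list and 13 tested, gave 5 higher and 8 not called, with a median log2 ratio of 0.76. No gene of the list was called lower by edgeR, and none of the tested genes with a negative ratio had an unadjusted p under 0.05 or passed with DESeq2. Kcnma1, the pore subunit of a calcium-activated potassium channel, was below the minimum RPKM and not tested, with 62 and 0 reads in Rgs5-high libraries against 118 and 310 in Dcn-high ones. Ppp1r14a, an inhibitor of the myosin phosphatase, had 1898 and 1595 reads in Rgs5-high libraries against 8 and 3. With so few Dcn-high reads, Ppp1r14a passed the RPKM filter through other wells. The phosphatase subunit Ppp1r12a (1.71 ± 0.17), the potassium channel subunit Kcnmb1 (2.76 ± 0.32), the cyclic GMP-dependent kinase Prkg1 (1.74 ± 0.33) and Rock1 (0.91 ± 0.22) were also higher. With the tumor as a block Itpr1 was called as well, which made 6.

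Of the 10 regulators, 4 were higher, 1 was lower and 5 were not called, with a median log2 ratio of 0.65. Myocd, which encodes myocardin, had 504 and 786 reads in Rgs5-high libraries against 2 and 0, which is at least 108-fold higher in tumor 2 if the count of 0 is set at 3 reads (edgeR adjusted p = 0.00807). Myocd, too, passed the RPKM filter through wells outside the Dcn-high class. Mef2c (2.37 ± 0.27), Heyl (1.00 ± 0.16) and Mef2a (0.85 ± 0.17) were higher too, and Klf4 was lower (-4.80 ± 0.57), a factor known to repress smooth muscle genes. Srf itself stood at 0.68 ± 0.40 and did not pass the test (edgeR adjusted p = 0.325), nor did Mkl1 (0.62 ± 0.29) and Mkl2 (0.56 ± 0.20). Tead1 (-0.90 ± 0.41) and Gata6 (-2.91 ± 0.76) did not pass either, but were called lower with the tumor as a block, at adjusted p values of 0.0249 and 0.0380.

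The non-muscle counterparts served as a comparison. Of 12 such genes edgeR called none higher, although Tpm4 and Cfl1 had an unadjusted p under 0.05 as higher and passed with DESeq2. Myh10, a non-muscle myosin heavy chain, was lower (-4.34 ± 0.32), and the median log2 ratio was 0.09. Among all genes tested 6.74% were called higher and 9.84% lower, so the counts of this list are near those shares. The counts of genes called lower in the other lists are near the share of all genes as well.

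Whether the contractile genes rose and fell together from cell to cell was described with Spearman's rho with Acta2 across the wells of 1 class and 1 tumor. Wells are not replicates and share plate, depth and gene content, so no p is given. All other genes with a read in at least 20% of the wells of the class in each tumor were ranked alongside, 7052 in Rgs5-high and 8284 in Dcn-high wells, and their median rho was 0.0848 and 0.0655.

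In Rgs5-high wells Tagln followed Acta2 most closely among the contractile genes, with a rho of 0.749 in tumor 1 and 0.725 in tumor 2, and it took place 2 of the 7052. Tpm2 (0.723 and 0.705) was at place 5 and Myl9 (0.677 and 0.712) at 6. Mylk (0.590 and 0.613) came at place 13, Cald1 (0.544 and 0.496) at 26 and Myh11 (0.474 and 0.483) at 34. Des, at 0.234 and 0.259, was at place 260, and Casq2, at 0.0827 and 0.0413, at 4336, which is in the lower part of the ranking. Cnn1 was in too few wells to be ranked, and its rho was 0.319 and 0.311.

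In Dcn-high wells 5 of the other 9 genes could be ranked. Myl9 (0.608 and 0.700), Tpm2 (0.589 and 0.688) and Tagln (0.650 and 0.580) were again among the first, at places 2, 4 and 6 of 8284, and Cald1 (0.347 and 0.358) was at 39. Mylk had a rho of only 0.130 and 0.165, at place 1523. The other 4 genes had reads in too few wells to be ranked, with Des at 0.240 and 0.167, and Myh11, Cnn1 and Casq2 of opposite sign in the tumors. Over the 5 genes ranked in both classes (Tagln, Mylk, Myl9, Tpm2 and Cald1) the median rho with Acta2 was 0.694 in Rgs5-high and 0.615 in Dcn-high wells. Whether the rho of a gene differs between classes was not tested.

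**Figure D4:**
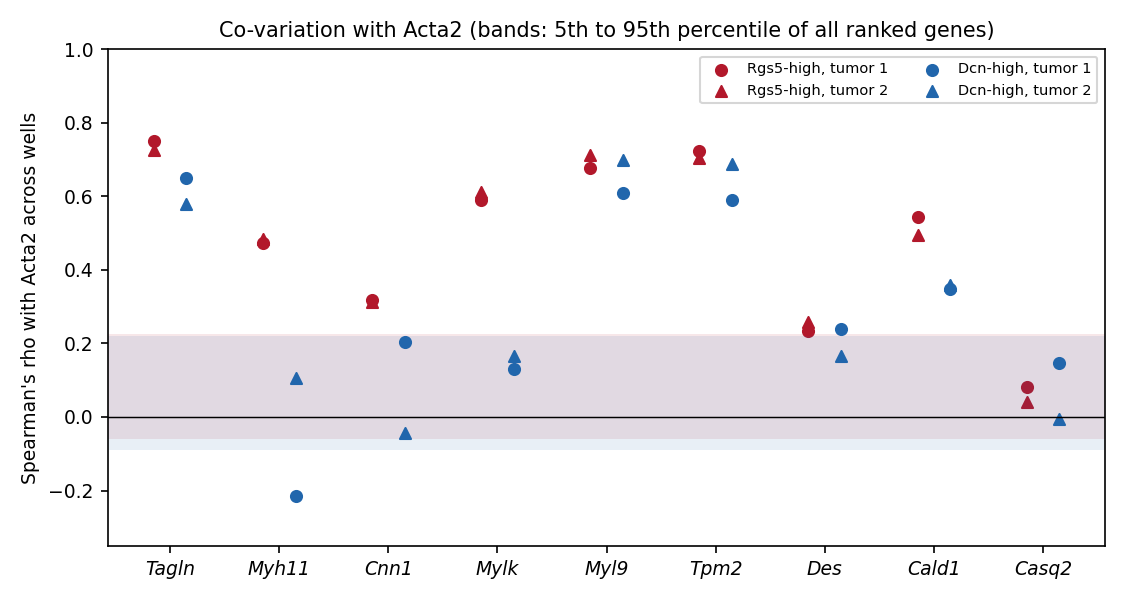
Spearman's rho of each contractile gene with Acta2 across wells (vertical axis) in Rgs5-high wells (red) and Dcn-high wells (blue), with circles for tumor 1 and triangles for tumor 2; shaded bands run from the 5th to the 95th percentile of all ranked genes. Tagln, Myl9 and Tpm2 lie far above the bands in both classes, Mylk in Rgs5-high wells, and Casq2 within the bands.

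**Figure D5:**
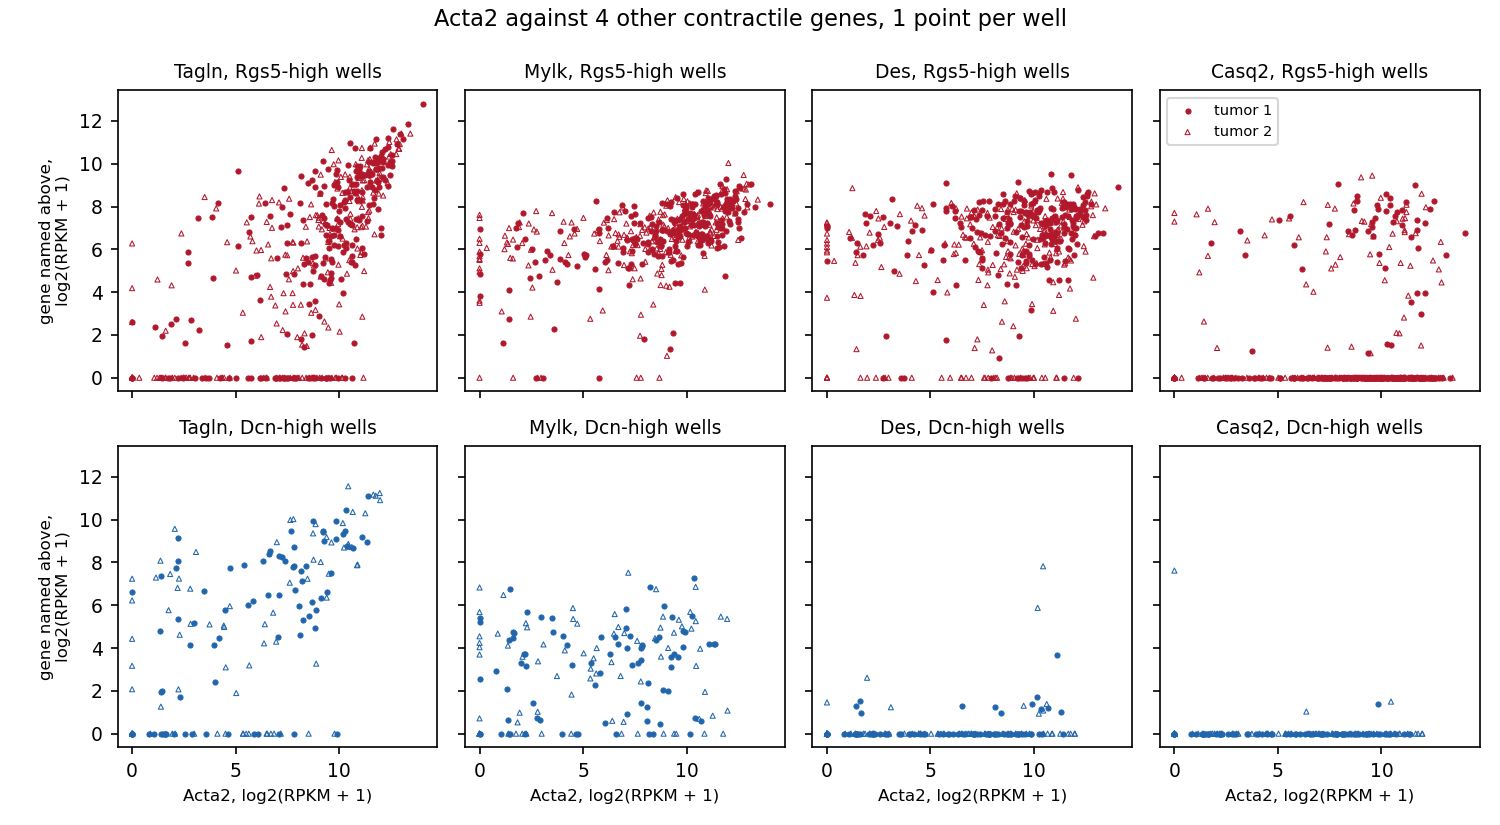
Log2(RPKM + 1) of Tagln, Mylk, Des and Casq2 (vertical axes) against that of Acta2 (horizontal axes), with 1 point per well, in Rgs5-high wells (upper row) and Dcn-high wells (lower row). Tagln climbs with Acta2 in both rows, Mylk does so in the upper row, Des rises less with Acta2 in the upper row and is at 0 in most wells of the lower one, and Casq2 is at 0 in most wells of both rows.

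Depth and the content of a well moved with these levels. In Rgs5-high wells the rho of Acta2 with the reads of a well was 0.302 and 0.259. With the number of detected genes it was 0.355 and 0.462 and with the ERCC share -0.377 and -0.563. The ERCC share, the strongest of these, was not partialled out. After reads and genes were partialled out, the mean rho with Acta2 over the tumors was 0.687 for Tagln, 0.664 for Myl9, 0.656 for Tpm2, 0.584 for Mylk and 0.164 for Des in Rgs5-high wells. In wells thinned to 50000 reads it was 0.684 for Tpm2 and 0.581 for Mylk in Rgs5-high wells, and in Dcn-high wells it was 0.104 for Mylk and 0.0536 for Des, against 0.147 and 0.204 without thinning.

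The contractile genes were also correlated among themselves. In Rgs5-high wells Tagln and Myl9 had a mean rho of 0.676, Myl9 and Tpm2 0.632 and Tagln and Tpm2 0.610. Myh11 was closest to Mylk, at 0.533 and 0.538, a higher value than with Acta2. Des had its highest value with Myl9, at 0.360 and 0.369. Casq2 lay between -0.09 and 0.17 with every other gene of the set in each tumor. In Dcn-high wells the corresponding means were 0.511 for Tagln and Myl9, 0.626 for Myl9 and Tpm2 and 0.560 for Tagln and Tpm2, and Tagln and Cald1 had 0.486, whereas Mylk did not exceed 0.249 with any gene.

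Of the 7 genes outside the set among the first 10 of each class, 4 were in the smooth muscle cytoskeleton list and 3 in the non-muscle list. In Rgs5-high wells Actb was first, with a rho of 0.801 and 0.797, Tpm1 at place 3 (0.732 and 0.720) and Flna at 4 (0.724 and 0.724), followed from place 7 by Myl12a, Csrp1, Tpm4 and Cnn2. In Dcn-high wells Actb (0.691 and 0.707), Tpm1 (0.554 and 0.740) and Flna (0.560 and 0.700) were again high, with Myl6, Actn1, Myl12a and Cnn2 completing the first 10. The 2 lists of 10 shared 8 genes, which is 80% of each. Actb was not called as different between the classes (log2 ratio 0.20 ± 0.17, edgeR adjusted p = 0.497), although it was the gene that followed Acta2 most closely in each.

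At the other end, the lowest values in Rgs5-high wells were those of Kcnj8 (-0.412 and -0.425), Zfp36l1, Gdpd3, Pdgfrb (-0.340 and -0.367) and Sepp1. Kcnj8 encodes a pore subunit of an ATP-sensitive potassium channel and Pdgfrb a receptor for platelet-derived growth factor, both known from pericytes. In Dcn-high wells the lowest were Dcn itself (-0.483 and -0.424), which had been used to choose the wells, then Mmp2, Sepp1, Apod and Lum. Sepp1 was among the 5 lowest in both classes.

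Of the lists, the non-muscle genes had a median rho with Acta2 of 0.526 in Rgs5-high wells (11 ranked) and 0.442 in Dcn-high wells (12 ranked). The smooth muscle cytoskeleton list had 0.406 (20 ranked) and 0.323 (18 ranked), the contraction control list 0.193 (11 ranked) and 0.0895 (9 ranked), and the regulators 0.141 (7 ranked) and 0.0923 (8 ranked). Srf had the highest rho of the ranked regulators in Rgs5-high wells, at 0.360 and 0.318, followed by Tead1 at 0.319 and 0.272. Heyl, higher in Rgs5-high wells as a class, had -0.167 and 0.0449.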

How the data were processed

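The members and gene lists were chosen with earlier results of these data known. The authors used STAR to align single-end reads of 43 bases to mm10, quantified genes by the RefSeq annotation, and deposited whole-number read counts per gene without normalization. The RPKM values deposited by the authors are scaled to all reads of a well, the 92 ERCC spike-ins included. The tables were joined by gene symbol, and 0 columns were left unused.

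Levels used log2(RPKM + 1), that is, a pseudocount of 1. Counts were summed per tumor and class (4 libraries) and tested with edgeR 4.0.16 (TMM, glmQLFit, glmQLFTest, no covariate, two-sided, adjusted p of 0.05) in R 4.3.3 for genes whose RPKM averaged at least 1. DESeq2 1.42.0 was an alternative. Summed endogenous reads ranged from 19167790 to 52406575. Both libraries of a tumor come from 1 animal and are therefore paired. Their deviations from the class means correlated by 0.168 across genes. Shares have exact binomial 95% intervals. Correlations were computed with scipy 1.17.1. Methods were tested on simulated data. Named beside the members were the 10 highest and 5 lowest correlations with Acta2 in each class, and the genes past the threshold of each list, at most 8 a list, with all regulators. Kcnma1, Itpr1 and Cfl1 were named after their values were seen. A gene of the cytoskeleton list is counted but not reported by name here. Nothing in the labels separates cultures or repeats, so p-values measure the spread between 2 tumors. Doublets were not called.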

Additional observations from a re-analysis of the deposited data

Results flagged for a closer look

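Tagln was the 1 contractile gene whose summed reads moved in opposite directions in the tumors. Its log2 ratio of Rgs5-high to Dcn-high libraries was 0.79 in tumor 1 and -0.27 in tumor 2, and this difference between tumors was not tested. Data outside the comparisons held signal as well. Of the 41 wells with under 10000 endogenous reads, 26 had an Acta2 read, with 68 summed reads in tumor 1 and 67 in tumor 2.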

How the results depend on the processing

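The 10 genes kept a log2 ratio above 0 in every alternative except the ones named here. With ERCC reads as library size Tagln stood at -0.45 and Cald1 at -0.30, and with the replicate block added, an alternative chosen after seeing the data, the values were again -0.45 and -0.30. With 1 replicate left out, Tagln ranged from -0.27 to 0.79. With 1 tumor left out no residual spread remains, so those values carry no test. Genes called higher in Rgs5-high wells numbered 790, against 1293 with DESeq2, 524 with ERCC reads as library size and 64 at an adjusted p of 0.001. Genes called lower numbered 1153, against 3735 with ERCC reads, 3970 with ERCC reads and the block, and 162 at 0.001. Of the contractile genes 6 were called higher, and 1 at 0.001. The call of Tpm2 was lost with the replicate block (adjusted p 0.0555), with each well scaled to the same total (0.0611), with a limit of 3 for the classes (0.0581), without wells with epithelial reads (0.0693) and with ERCC reads (0.390, and 0.409 with the block). Casq2 passed with ERCC reads (0.0487, and 0.0242 with the block), with every gene with a read (0.0172) and with a limit of 3 (0.000640). The replicate block changed no other call of the contractile genes.

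The median rho of the 9 genes with Acta2 was 0.520 in Rgs5-high wells and 0.461 after partialling out reads and genes. In Dcn-high wells it was 0.204, and 0.278 with a limit of 3, but both are the values of Des, since 4 of the 9 genes had too few reads there to be ranked, so it is not to be set against the Rgs5-high median. Rescaling RPKM to endogenous reads, chosen after seeing the data, gave 0.566 for Mylk and 0.214 for Des in Rgs5-high wells. The causes were not tested. With 2 tumors, small differences cannot be seen, and Myh11, Des, Casq2 and Cnn1 rest on few reads in Dcn-high wells.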
